A study of Homo sapiens with 18 samples.

Results

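The 10 genes described here, GALNT1, GALNT2, GALNT3, GALNT4, GALNT5, GALNT6, GALNT7, GALNT10, GALNT12 and GALNT14, encode polypeptide GalNAc-transferases, and are 10 of the 36601 gene IDs in the count files. They were picked by symbol, knowing their counts in these same libraries: their shControl levels in each line and their shRNF213#2 to shControl ratios entered the choice. Those values are therefore given as a description and without p-values. Where the number of them past a threshold is printed, the share of all genes stands beside it. The libraries came from 3 established human lines of cholangiocarcinoma, a cancer of the bile duct epithelium: HuCCT1 (labelled bile duct), YSCCC (labelled liver) and KKU-100 (labelled biliary tract). Each line stably carried, from a lentivirus, either a control hairpin (shControl, genotype labelled WT) or 1 hairpin against the ubiquitin ligase gene RNF213 (shRNF213#2, genotype labelled RNF213 knockdown), with 3 biological replicates in each of the 6 groups. All cells grew with serum, antibiotics, an antifungal and HEPES, HuCCT1 and YSCCC in RPMI-1640 and KKU-100 in Ham's F12, so line and medium differ together. Because 1 hairpin was used, effects of the hairpin sequence itself and of lower RNF213 cannot be told apart.

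GalNAc-transferases start mucin-type O-glycosylation: in the Golgi they move N-acetylgalactosamine from UDP-GalNAc onto serine or threonine of a protein, which makes the Tn antigen. C1GALT1, with its chaperone C1GALT1C1, then adds galactose to give core 1, and other enzymes branch it or cap it with sialic acid. The family members differ in the peptides they accept. GALNT1 and GALNT2 act on many unglycosylated substrates, GALNT3 and GALNT6 are close relatives of each other, and GALNT4, GALNT7, GALNT10 and GALNT12 are known for acting on peptides that already carry GalNAc. Bile duct cells and their tumours make mucins, the classic acceptors of this pathway.

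Library totals ran from 21056732 to 25502097 counts. RNF213 itself was lower with the hairpin in the mean of each line, at 694.8 ± 490.1 and 327.8 ± 82.68 CPM (read counts per gene, scaled to a common library size and composition) in HuCCT1, 446.5 ± 75.11 and 201.1 ± 44.21 CPM in YSCCC, and 1163 ± 139.4 and 591.2 ± 51.6 CPM in KKU-100 (SD, n = 3 each). The HuCCT1 arms overlapped, and its shControl mean was raised by 1 library at 1260 CPM. Without the highest library of each arm the HuCCT1 means were 412 and 280.1 CPM. By pair, RNF213 in HuCCT1 went from 394.4, 1260 and 429.7 to 276.7, 423.2 and 283.6 CPM, lower in each pair. Of 6 markers of biliary epithelium, all were at 5 CPM or more in every HuCCT1 and YSCCC library, but only 4 in KKU-100. KRT19 and EPCAM were near 0 there, with highest values of 0.179 and 0.133 CPM. The 6 markers summed to 7159 to 9695 CPM in HuCCT1, 3936 to 7417 CPM in YSCCC and 874 to 1458 CPM in KKU-100. The part of this epithelial difference in the GALNT levels below was not tested. In bulk RNA, fewer cells of a kind and less RNA per cell cannot be told apart.

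Each line had its own GALNT repertoire. The order of the genes within a line was read in TPM (the authors' transcript level, scaled by gene length and library), since levels of different genes can be compared only per length. In shControl, HuCCT1 had all 10 genes at a mean of 1 TPM or more, YSCCC 8 of them and KKU-100 6. GALNT2 led in HuCCT1 at 105 ± 31.06 TPM and in YSCCC at 161.7 ± 44.59 TPM (SD, n = 3 each). In KKU-100 GALNT1 led instead, at 118.2 ± 14.85 TPM, over GALNT2 at 82.42 ± 40.48 TPM (SD, n = 3 each). The ranges of GALNT1 and GALNT2 overlapped in KKU-100, because its replicate 1 had 129.1 TPM of GALNT2 and the others 60.2 and 57.91 TPM.

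**Figure D1:**
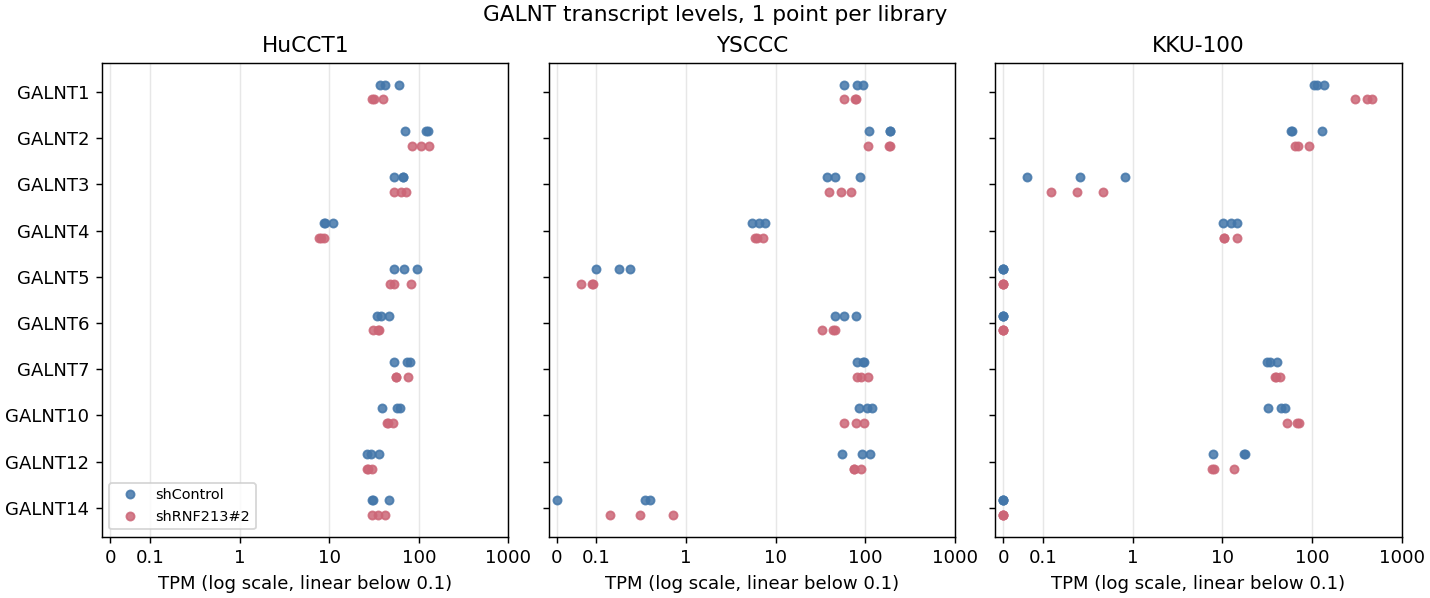
TPM of each GALNT gene (x axis, log scale with a linear stretch below 0.1) in each line, 1 point per library, shControl in blue and shRNF213#2 in red. GALNT3, GALNT5, GALNT6 and GALNT14 are at or near 0 in KKU-100, GALNT5 and GALNT14 are also near 0 in YSCCC, and the KKU-100 points of GALNT1 separate by arm.

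In shControl HuCCT1, GALNT2 was followed by GALNT5 (71.82 ± 21.32 TPM), GALNT7 (69.09 ± 14.73), GALNT3 (61.82 ± 7.567), GALNT10 (52.78 ± 11.94), GALNT1 (46.13 ± 12.13), GALNT6 (39.11 ± 6.229), GALNT14 (35.72 ± 9.371), GALNT12 (30.51 ± 4.998) and GALNT4 (9.581 ± 1.198 TPM; SD, n = 3 each). Each neighbour in that order overlapped the next in its 3 libraries, apart from the last step, from GALNT12 to GALNT4.

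In shControl YSCCC, GALNT10 (103.3 ± 16.78 TPM), GALNT7 (90.78 ± 9.521), GALNT12 (85.86 ± 29.03), GALNT1 (77.61 ± 18.11), GALNT6 (60.62 ± 15.9) and GALNT3 (56.55 ± 26.02 TPM; SD, n = 3 each) came after GALNT2, with overlap at each step. GALNT4 was well apart at 6.478 ± 1.055 TPM, and GALNT14 and GALNT5 were at trace level, 0.2458 ± 0.2141 and 0.1714 ± 0.06751 TPM (SD, n = 3 each). The counts behind these traces were 1 to 21 for GALNT14 and 9 to 28 for GALNT5 over the 6 YSCCC libraries.

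In shControl KKU-100, GALNT10 (42.66 ± 9.261 TPM) and GALNT7 (35.64 ± 4.665 TPM) overlapped each other below GALNT1 and GALNT2, and GALNT12 (14.4 ± 5.736 TPM) overlapped GALNT4 (12.37 ± 2.081 TPM; SD, n = 3 each). GALNT3 was at 0.3776 ± 0.3893 TPM (SD, n = 3), from 2, 10 and 25 counts. GALNT5 had 0 counts in all 6 KKU-100 libraries, GALNT6 had 1 count in each of 2 of them, and GALNT14 had 1 count in 1 of them. Against a floor of 3 counts per library (0.1425 CPM at the smallest library), GALNT5 was at least 1967-fold higher in the mean of the 6 HuCCT1 libraries than in KKU-100. On the same floor GALNT6 was at least 536-fold higher in HuCCT1 and at least 654.1-fold higher in YSCCC, and GALNT14 at least 274.3-fold higher in HuCCT1. Counting intervals and floors cover counting error only.

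Of the 10 genes, 4 did not overlap in CPM between shControl YSCCC and HuCCT1, 7 between KKU-100 and HuCCT1, and 9 between KKU-100 and YSCCC. The shares of all 19143 genes tested were 67.1%, 65.2% and 64.3%. Since the rule used these levels, nothing is read from the counts. Leaving out the 3 genes at the floor in KKU-100, the widest differences, on the log2 CPM scale, were those of GALNT5 (-8.63, SE 0.43) and GALNT14 (-7.25, SE 0.59) in YSCCC against HuCCT1, and of GALNT3 in KKU-100 against HuCCT1 (-7.38, SE 0.52) and YSCCC (-7.05, SE 0.51). GALNT12 was higher in shControl YSCCC than in HuCCT1 by 1.34 (SE 0.31) and lower in KKU-100 than in YSCCC by a log2 difference of -2.52 (SE 0.32).

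The line differences just given for GALNT3, GALNT5, GALNT12 and GALNT14 had the same direction in the shRNF213#2 libraries. GALNT10 did not repeat its difference between KKU-100 and YSCCC. It was -1.23 (SE 0.24), without overlap, in shControl and -0.08 (SE 0.24), with overlap, in shRNF213#2. The shRNF213#2 levels are no independent repeat. They follow from the shControl levels and the hairpin ratios, both of which entered the choice of the genes, so these too are a description without p-values.

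GALNT1, the broad initiating enzyme, stood at 483.3 ± 121.3 CPM in KKU-100, 104.4 ± 35.98 CPM in YSCCC and 62.87 ± 8.606 CPM in HuCCT1 with shRNF213#2 (SD, n = 3 each). No KKU-100 library overlapped another line, with log2 differences of 2.94 (SE 0.34) to HuCCT1 and 2.21 (SE 0.33) to YSCCC. GALNT12, a glycopeptide-acting enzyme, stood at 61.69 ± 8.328 CPM in YSCCC, 24.14 ± 2.865 CPM in HuCCT1 and 7.791 ± 2.773 CPM in KKU-100 (SD, n = 3 each), without overlap between any 2 lines.

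GALNT7, another glycopeptide-acting enzyme, was at 58.78 ± 1.854 CPM in KKU-100, below every library of HuCCT1 (97.17 ± 15.71 CPM) and YSCCC (124.1 ± 12.54 CPM; SD, n = 3 each). GALNT4 was at 14.48 ± 1.902 CPM in YSCCC, 21.27 ± 0.6065 CPM in HuCCT1 and 29.29 ± 7.085 CPM in KKU-100 (SD, n = 3 each), and these ranges did not overlap. GALNT5 and GALNT14 had means of 0.378 and 0.432 CPM in YSCCC beside 268.9 and 40.28 CPM in HuCCT1. GALNT10 overlapped between all 3 lines, at 119.3 ± 13.82, 155.8 ± 31.92 and 147.5 ± 18.75 CPM in HuCCT1, YSCCC and KKU-100 (SD, n = 3 each). GALNT2 also overlapped, at 153.3, 218.5 and 109.7 CPM in the mean.

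The next comparison asks how these genes differ between shRNF213#2 and shControl within a line. At an unadjusted p under 0.05, the paired edgeR fit had 0 of the 10 in HuCCT1, 3 of 9 tested in YSCCC and 3 of 7 tested in KKU-100. Over all genes it had 1743 of 15747, 3876 of 16932 and 2391 of 14915. In HuCCT1, none of the 10 was called (adjusted p under 0.05 over all genes tested in the line) by this fit, and 0 by DESeq2. In YSCCC, 2 of 9 tested genes were called, GALNT6 and GALNT10, both lower. In KKU-100, 1 of 7 tested genes was called, GALNT10, and it was higher. Of all genes tested, 0.140%, 8.25% and 0.443% were called in HuCCT1, YSCCC and KKU-100. Those called lower in YSCCC were 4.56% and those called higher in KKU-100 0.302%. Since the rule used these ratios, nothing is read from the counts. GALNT14 in YSCCC and GALNT5, GALNT6 and GALNT14 in KKU-100 had too few counts to be tested.

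**Figure D2:**
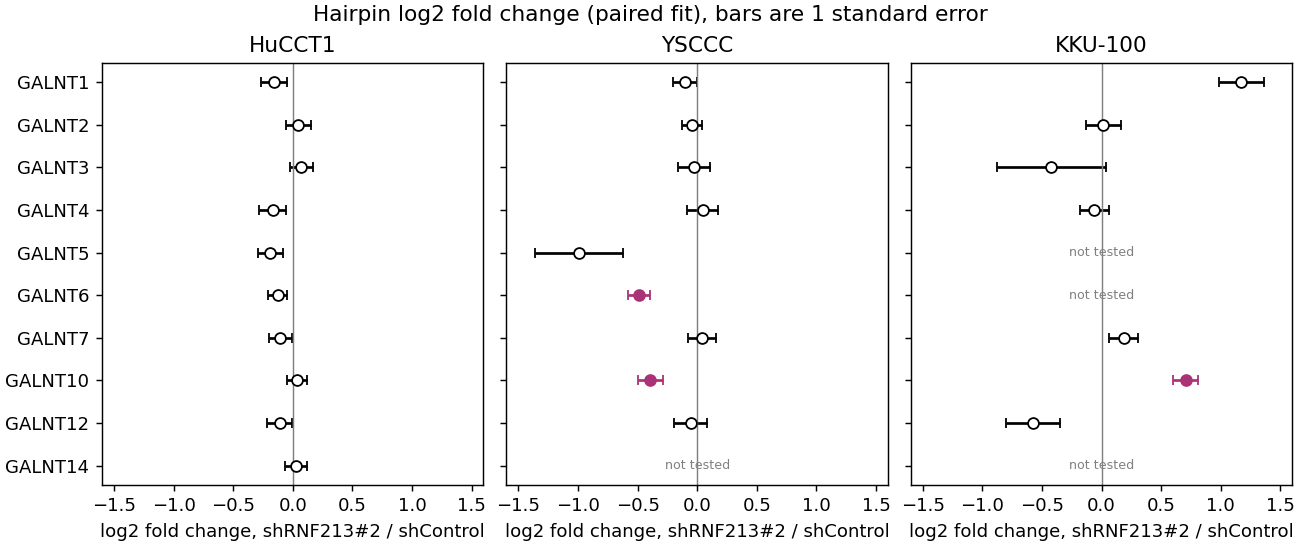
Log2 fold change of shRNF213#2 against shControl (x axis) for each GALNT gene in each line, with replicate number as pair. Points are the fitted values, bars 1 standard error, filled points genes called at an adjusted p under 0.05: GALNT6 and GALNT10 in YSCCC and GALNT10 in KKU-100. GALNT1 in KKU-100 has the largest value, 1.17, and is not called.

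GALNT1 (ENSG00000141429, chromosome 18, 35581117 to 35711834, plus strand, GRCh38) differed most in KKU-100. Its shControl libraries held 194.1, 235 and 201.3 CPM in replicates 1, 2 and 3, and its shRNF213#2 libraries 576, 346 and 527.8 CPM. Every shRNF213#2 library was above every shControl library, and replicate 2 had the smallest gap. The means, 210.1 ± 21.82 and 483.3 ± 121.3 CPM (SD, n = 3 each), were 2.30-fold apart, and the paired log2 fold change was 1.17 (SE 0.19), with 1.57, 0.56 and 1.39 in the 3 pairs. GALNT1 was outside the threshold in this fit, but was called with DESeq2, with no filter on low counts, in 1 fit of all 18 libraries and without replicate 2 (1.47). It was not called with another kind of size factors, without the pairing, without replicate 1 (0.98) or without replicate 3 (1.06). Since the rule used this ratio, nothing is read from these calls.

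In TPM the difference of GALNT1 in KKU-100 was wider, from 106, 134.7 and 113.8 to 464.8, 303.7 and 416.3 TPM. The ratio of means was 3.34 in TPM and 2.30 in CPM. The scales also differed for GALNT1 in HuCCT1, where the ratio of means was 0.731 in TPM and 0.884 in CPM. The labels do not say how the deposited TPM was estimated, and the reason for the gap was not tested. In the other lines the arms overlapped: GALNT1 read 52.7, 79.61 and 80.94 CPM in HuCCT1 shControl and 57.31, 58.51 and 72.78 CPM with shRNF213#2. YSCCC read 133, 150.8 and 60.14 CPM in shControl and 130.2, 119.7 and 63.31 CPM with shRNF213#2.

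GALNT10 (ENSG00000164574, chromosome 5, 154190730 to 154420984, plus strand), which extends glycosylation on GalNAc-bearing peptides, lay in opposite directions in KKU-100 and YSCCC. In KKU-100 it went from 91.86, 101.9 and 77.31 to 157.3, 159.4 and 125.9 CPM, without overlap. Its means were 90.37 ± 12.38 and 147.5 ± 18.75 CPM (SD, n = 3 each), 1.63-fold apart, and the log2 fold change was 0.71 (SE 0.10), from 0.78, 0.65 and 0.70 in the pairs. In YSCCC it went from 237.3, 269.1 and 128.1 to 174.5, 174 and 119 CPM. The arms overlapped there, because replicate 3 was low in both, and each pair was lower: -0.44, -0.63 and -0.11, fitted at -0.39 (SE 0.10). HuCCT1 was level, with 91.67, 130.3 and 130.4 CPM in shControl and 104.1, 131.2 and 122.5 CPM with shRNF213#2 (0.03, SE 0.09).

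GALNT6 (ENSG00000139629, chromosome 12, 51351247 to 51392867, minus strand), the relative of GALNT3, went in YSCCC from 125.8, 108.8 and 74.85 to 82.7, 83.65 and 53.72 CPM. The means were 103.1 ± 25.92 and 73.36 ± 17.02 CPM (SD, n = 3 each), 1.41-fold apart, and the pairs gave -0.60, -0.38 and -0.48 (fitted -0.49, SE 0.10). In HuCCT1 the 3 pairs were slightly lower too, from 72.1, 101.8 and 71.98 to 65.24, 87.79 and 70.97 CPM (-0.13, SE 0.08), which was not called. GALNT3 itself showed no such difference in YSCCC: 67.17, 54.86 and 114.2 CPM in shControl stood against 58.94, 74.86 and 90.51 CPM (-0.03, SE 0.13).

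**Figure D3:**
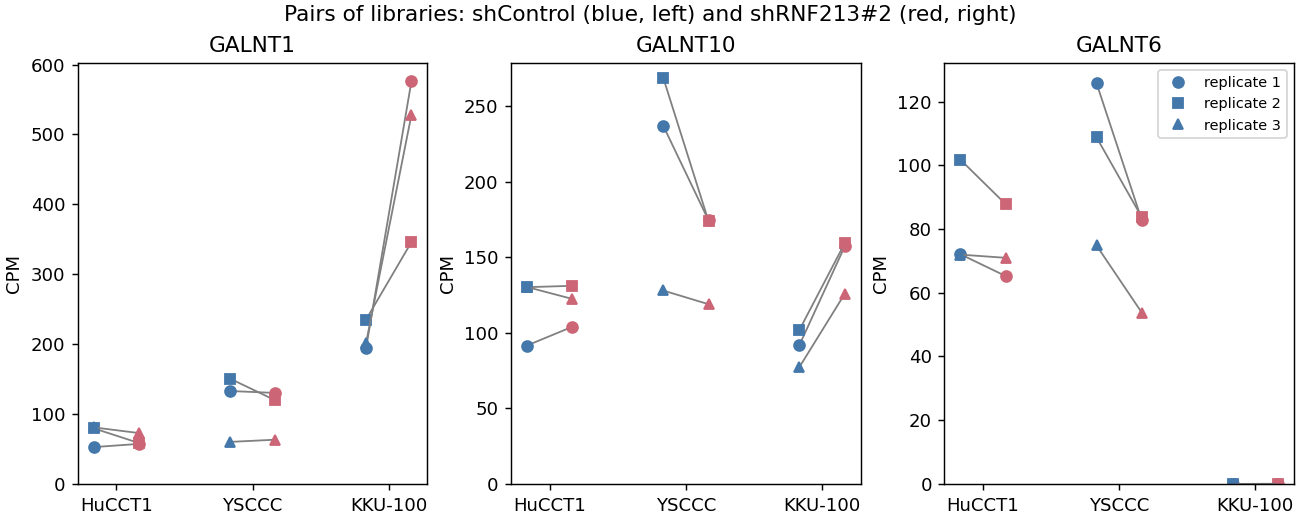
CPM of GALNT1, GALNT10 and GALNT6 in shControl (blue, left) and shRNF213#2 (red, right) libraries of each line, with a line joining libraries of the same replicate number. GALNT1 and GALNT10 lie higher with shRNF213#2 in all 3 KKU-100 pairs, and GALNT10 and GALNT6 lie lower in all 3 YSCCC pairs.

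These calls rest on the pairing and on single pairs. With the replicate number left out of the fit, GALNT6 (-0.49) and GALNT10 (-0.44) in YSCCC and GALNT10 in KKU-100 (0.71) were no longer called by edgeR. Without replicate 1, the calls of GALNT6 (-0.43) and GALNT10 (-0.37) in YSCCC and of GALNT10 in KKU-100 (0.68) were lost. The call of GALNT10 was also lost without replicate 2 in YSCCC (-0.28) and without replicate 3 in KKU-100 (0.71).

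The other members showed smaller or less even differences. GALNT12, located on chromosome 9, was lower in all 3 KKU-100 pairs, from 7.246, 14.1 and 13.55 to 6.3, 10.99 and 6.081 CPM, without being called (-0.57, SE 0.23). Its arms overlapped there, and the widest gap was in replicate 3 (-1.16). GALNT5 in YSCCC went from 0.8257, 1.076 and 0.4358 to 0.3506, 0.4223 and 0.3607 CPM, that is from 20, 28 and 12 counts to 9, 11 and 10. Its arms did not overlap, at a level of a few counts, and it was not called (-0.99, SE 0.37). GALNT2, the other broad initiator, lay at -0.04 to 0.05 in the 3 lines. GALNT7 lay at -0.10, 0.04 and 0.19 in HuCCT1, YSCCC and KKU-100, and GALNT4 at -0.17, 0.04 and -0.06. GALNT3 in KKU-100 (-0.42, SE 0.46) rested on 2 to 25 counts.

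In HuCCT1 the 10 fitted values spanned only -0.19 for GALNT5 to 0.07 for GALNT3. GALNT5, the highest there in CPM, read 206.6, 430.1 and 289.2 CPM in shControl and 216.8, 378.3 and 211.5 CPM with shRNF213#2. GALNT14 read 33.01, 53.54 and 33.43 CPM and then 38.07, 49.65 and 33.13 CPM. For both genes the library of replicate 2 was the highest of its arm, and the arms overlapped.

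The median log2 fold change over the tested members was -0.11 in HuCCT1, -0.05 in YSCCC and 0.01 in KKU-100, beside 0.00, 0.01 and 0.00 over all genes tested. Arms did not overlap for 0 of 10 genes in HuCCT1, 1 of 9 in YSCCC (GALNT5) and 2 of 7 in KKU-100 (GALNT1 and GALNT10). Among all genes tested, 8.52%, 10.7% and 12.5% did not overlap.

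Between lines, the hairpin log2 fold change of GALNT1 was higher in KKU-100 than in HuCCT1 by 1.33 (SE 0.23) and than in YSCCC by 1.27 (SE 0.23). That of GALNT10 was higher in KKU-100 than in YSCCC by 1.10 (SE 0.15) and than in HuCCT1 by 0.67 (SE 0.15). GALNT10 in YSCCC was lower than in HuCCT1 by a difference of -0.43 (SE 0.15). Of the 10 genes, 0 differed at an adjusted p under 0.05 for YSCCC minus HuCCT1. GALNT5, GALNT6 and GALNT14, at the floor in KKU-100, were left out of the comparisons with that line. Of the remaining genes, 1 differed for KKU-100 minus HuCCT1 and 2 for KKU-100 minus YSCCC. The shares of all genes were 0.0470%, 0.235% and 2.63%, and nothing is read from these counts either.

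The make-up of the GALNT message in KKU-100 differed between the arms, mainly through GALNT1. GALNT TPM summed over the whole family came to 344.4 ± 23.4 in shControl and 635.5 ± 82.22 with shRNF213#2 (SD, n = 3 each). The libraries ran from 319.3 to 365.6 and from 557.4 to 721.3 TPM, without overlap. GALNT1 took 29.01%, 38.68% and 35.64% of that sum in shControl and 64.44%, 54.48% and 66.31% with shRNF213#2. The mean share of GALNT2 went from 23.58% to 11.85% while its TPM stayed near level (82.42 and 75.46 TPM). The sum differed less in HuCCT1 (564.1 ± 107.4 and 525.3 ± 45.59 TPM) and YSCCC (665.6 ± 103.6 and 601.2 ± 62.34 TPM; SD, n = 3 each), where the arms overlapped. Because the shares use TPM, they carry the wider TPM difference of GALNT1 given above. The 10 genes held 88.87% to 96.93% of the family's TPM in the group means. GALNT11 was the main transcript outside them, at 333 to 947 counts per library. GALNT18 reached 652 counts, GALNT9 73, and each of the others at most 17.

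**Figure D4:**
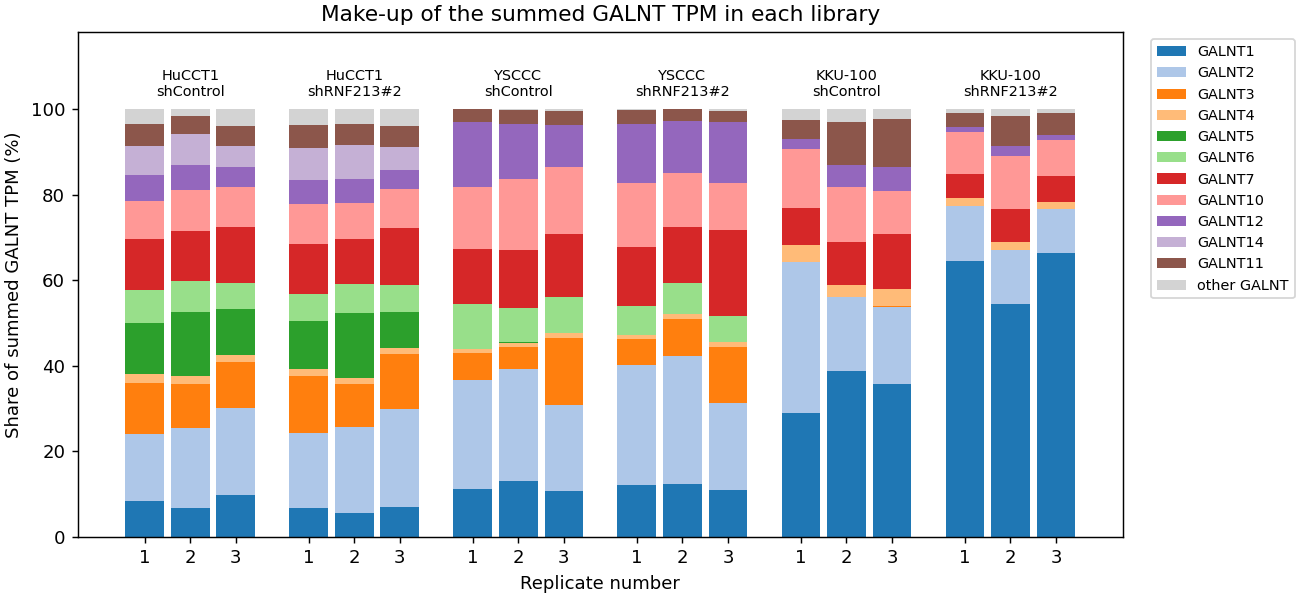
Share of the summed GALNT TPM (y axis, percent) taken by each gene in each of the 18 libraries, grouped by line and arm and numbered by replicate. In KKU-100 the GALNT1 share is 29.01% to 38.68% in shControl and 54.48% to 66.31% with shRNF213#2, while in HuCCT1 and YSCCC the GALNT1 shares of the arms overlap. The GALNT6 share in YSCCC is 8.049% to 10.61% in shControl and 6.258% to 7.314% with shRNF213#2.

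The starts of GALNT1 and GALNT10 are shown because these are the genes that lay higher together in KKU-100. The RefSeq promoter table (GRCh38.p14) holds 10 windows for 7 of the 10 genes, and GALNT4, GALNT5 and GALNT6 have no entry. The lines below give 150 bases on the plus strand, with GC boxes in capitals. They end just before the RefSeq start, or before the first GENCODE 29 exon base where that comes earlier, and hold no GENCODE 29 exon base. The stretches lie at chr18:35581590-35581739 and chr18:35580772-35580921, for 2 of the 3 listed starts of GALNT1, and at chr5:154190580-154190729 for GALNT10.
GALNT1 inner start: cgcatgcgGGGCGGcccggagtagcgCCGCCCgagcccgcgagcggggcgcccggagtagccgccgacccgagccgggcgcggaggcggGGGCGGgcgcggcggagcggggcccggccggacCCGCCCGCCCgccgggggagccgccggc
GALNT1 outer start: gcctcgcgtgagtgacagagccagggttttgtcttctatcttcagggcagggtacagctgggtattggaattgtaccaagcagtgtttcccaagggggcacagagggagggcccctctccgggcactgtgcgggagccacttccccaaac
GALNT10: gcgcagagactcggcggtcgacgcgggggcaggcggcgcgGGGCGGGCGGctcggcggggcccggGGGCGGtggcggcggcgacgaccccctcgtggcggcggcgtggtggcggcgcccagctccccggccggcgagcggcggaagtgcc
The GC box was searched as GGGCGG and, for the other strand, CCGCCC, with overlapping matches counted. The inner GALNT1 stretch held 5 matches and 32 CpG, the GALNT10 stretch 3 matches and 30 CpG, and the outer GALNT1 stretch 0 matches and 4 CpG. Of all 35116 promoters in the table, 36.8% had a match in the 150 bases before the start, where the median CpG number was 7. A match describes the letters only. The whole RefSeq windows are longer, with 250 bases before and 50 after the start. Over them, GALNT3, which is near 0 in KKU-100, had 2 GC boxes and 28 CpG, and GALNT2, which is expressed in all lines, had 1 and 51. On the same windows GALNT10 had 4 and 51, the inner GALNT1 start 5 and 62, and the outer 0 and 9. The third GALNT1 start had 1 and 50.

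Replicates of a line differed from each other for many of these genes, and libraries of the same number often deviated alike. In YSCCC, replicate 3 lay below the other replicates in both arms for GALNT1 (log2 deviations -1.23 in shControl and -0.98 with shRNF213#2), GALNT2 (-0.90 and -0.94), GALNT10 (-0.98 and -0.55), GALNT6 (-0.64 and -0.63), GALNT12 (-0.999 and -0.205) and GALNT4 (-0.51 and -0.24). GALNT3 lay above (0.91 and 0.45). The same 2 libraries had the highest YSCCC sum of 12 endoplasmic reticulum chaperone and ATF4 genes, 6303 and 4824 CPM, against 2078 to 2364 CPM in the others. Their part in the GALNT levels was not tested.

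In HuCCT1, replicate 1 was below the other 4 libraries in both arms for GALNT1 (-0.61 and -0.19), GALNT2 (-0.99 and -0.61), GALNT7 (-0.61 and -0.30), GALNT10 (-0.51 and -0.28) and GALNT12 (-0.45 and -0.15). Replicate 2 was above the others in both arms for GALNT5 (0.82 and 0.82), GALNT14 (0.69 and 0.48), GALNT6 (0.50 and 0.37) and GALNT12 (0.57 and 0.29). The replicate 2 libraries also had the highest sum of 8 interferon-response genes, 4589 and 4414 CPM against 291.3 to 601.8 CPM. In KKU-100, replicate 1 was above for GALNT2 (1.23 and 0.61) and GALNT4 (0.42 and 0.57). The 8 interferon-response genes summed to 5815 to 8165 CPM in KKU-100 shControl and 4295 to 5592 CPM with shRNF213#2, so the list was lower in the arm in which GALNT1 and GALNT10 were higher. Its part in those differences was not tested.

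Markers of other cell types were mostly low, apart from the hepatocyte list in HuCCT1, at 202.2 to 280.5 CPM and almost all SERPINA1. Some lists differed between the arms in 1 direction in all pairs of a line, and others did not. In HuCCT1 the hepatocyte, immune and endothelial sums were higher in some pairs and lower in others. The 5 fibroblast markers summed to 7.194, 15.84 and 11.82 CPM in KKU-100 shControl and 40.38, 12.03 and 32.89 CPM with shRNF213#2, beside GALNT1 log2 ratios of 1.57, 0.56 and 1.39 in the same pairs. Most of that sum was COL3A1 (5.486 to 34.08 CPM), and DCN reached 1.002 CPM. In YSCCC the fibroblast sum was lower in all 3 pairs, as were GALNT6 and GALNT10: 26.67, 27.12 and 21.61 CPM in shControl stood against 18.08, 16.97 and 10.79 CPM. In HuCCT1 it was higher in all 3 pairs, within 15.82 to 24.47 CPM.

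The 5 hepatocyte markers, almost all SERPINA1, and the 3 endothelial markers, mostly CDH5, were higher with shRNF213#2 in all 3 YSCCC pairs, with sums of at most 13.56 and 98.2 CPM. The endothelial sum was also higher in all 3 KKU-100 pairs, at no more than 6.259 CPM. The 4 immune markers, mostly CD68, were higher in all 3 YSCCC pairs and lower in all 3 KKU-100 pairs, with sums of 50.64 to 117 CPM over the 2 lines. ALB, PTPRC and CD3E stayed at 0.2894, 1.996 and 0.1629 CPM or less in every library. The part of these lists in the GALNT differences was not tested.

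**Figure D5:**
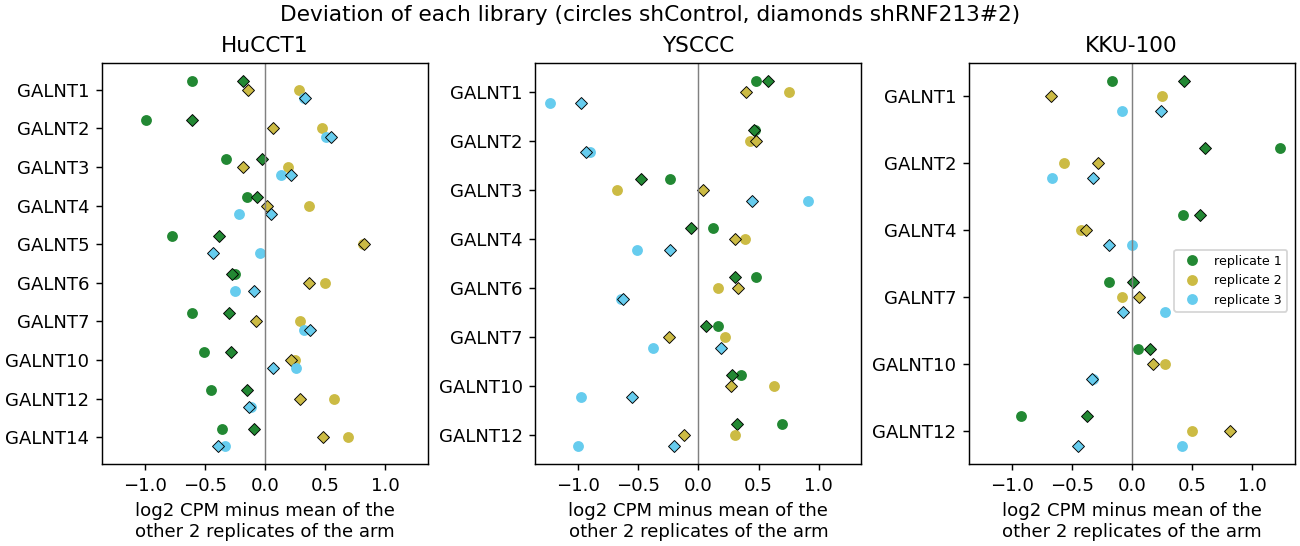
Deviation of each library from the mean of the other 2 replicates of its arm (x axis, log2 CPM), for the GALNT genes tested in a line with at least 5 CPM, coloured by replicate, circles shControl and diamonds shRNF213#2. In YSCCC both replicate 3 points lie left for GALNT1, GALNT2, GALNT6 and GALNT10 and right for GALNT3.

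After removal of line means, log2 CPM of GALNT1 and GALNT10 correlated at r = 0.85 over the 18 libraries, the highest value of any pair of the 10 genes. GALNT2 and GALNT3 had the lowest, -0.62. These values carry both the arm and the replicate differences, and libraries of the same number are not independent. Among 11052 genes compared in the same way, GALNT1 was most like CHP1 (r = 0.96), MCCC2 (0.92) and PPP4R1 (0.91). GALNT10 was most like ITGA6 (0.91), LMAN2L (0.90) and PINK1 (0.90). GALNT2 was most like BAZ1B (0.95), NUP205 (0.94) and ARHGAP10 (0.93), and GALNT12 most like SDC3 (0.92).

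Outside the 10 genes, 45 other O-glycosylation genes were in the files. They were 10 other GalNAc-transferase genes, 7 core and branch enzymes, 6 for sialic acid capping, 9 for sugar nucleotide supply and 13 mucins. In HuCCT1, 0 of 33 tested were called by the paired edgeR fit (10 at an unadjusted p under 0.05, and 2 by DESeq2, MUC3A lower and MUC6 higher). In YSCCC, 4 of 28 rose and 2 fell, where 3.69% and 4.56% of all genes did so. In KKU-100, 0 of 24 were called (5 at an unadjusted p under 0.05, and 2 by DESeq2, GCNT4 lower and MUC4 higher). MUC6 and MUC4, named here after their values were seen, had edgeR log2 fold changes of 1.30 (SE 0.22) and 1.65 (SE 0.48). The shares of all genes called, 0.140%, 8.25% and 0.443%, apply to the adjusted edgeR counts only. At an unadjusted p under 0.05, edgeR had 1743 of 15747 genes in HuCCT1 and 2391 of 14915 in KKU-100. DESeq2 called 114 and 432 of all genes in these lines at an adjusted p under 0.05. The list's median log2 fold changes were 0.01, -0.07 and 0.04. This list was chosen with earlier results of these data known, so nothing is read from its counts. The adjusted p-values of its genes are likewise given as a description.

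The 4 genes that rose in YSCCC were a carrier, a sialyltransferase and 2 mucins. SLC35A1, the Golgi carrier of CMP-sialic acid, rose from 14.52 ± 0.9775 to 30.02 ± 4.103 CPM (SD, n = 3 each; log2 fold change 1.04, SE 0.13, edgeR adjusted p = 0.000767). ST6GALNAC3, a sialyltransferase of the pathway, rose from 7.555 ± 3.19 to 15.17 ± 4.026 CPM (1.03, SE 0.17, edgeR adjusted p = 0.00319). The membrane mucin gene MUC3A rose from 11.15 ± 1.518 to 23.27 ± 8.097 CPM (1.01, SE 0.15, edgeR adjusted p = 0.0015). MUC1, another membrane mucin, rose from 318.6 ± 97.6 to 443.5 ± 170.9 CPM (0.44, SE 0.11, edgeR adjusted p = 0.0248). It was also higher in 3 of 3 pairs of HuCCT1 (0.47, SE 0.15) and of KKU-100 (0.37, SE 0.14), without being called there.

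SLC35A2, the Golgi carrier of UDP-galactose, fell in YSCCC from 90.27 ± 5.436 to 62.87 ± 15.22 CPM (-0.55, SE 0.11, edgeR adjusted p = 0.00984). GCNT4, a branching enzyme, fell from 57.26 ± 31.28 to 43.4 ± 28.18 CPM (-0.49, SE 0.12, edgeR adjusted p = 0.0205). GCNT4 was also lower in 3 of 3 pairs of HuCCT1 (-0.35, SE 0.21) and of KKU-100 (-0.73, SE 0.18), not called by the paired edgeR fit there. Each of these 6 genes had the same direction in 3 of 3 YSCCC pairs. In YSCCC none was called without the replicate number in the fit (edgeR adjusted p from 0.883 for SLC35A1 to 0.999). SLC35A1 and MUC3A kept their calls without any 1 replicate. GCNT4 (-0.63 and -0.52) and MUC1 (0.41 and 0.30) lost theirs without replicate 1 or 2, ST6GALNAC3 (0.79) without replicate 1 and SLC35A2 (-0.43) without replicate 2. In 1 fit of all 18 libraries MUC1 (edgeR adjusted p = 0.104) and GCNT4 (0.0833) were not called either, which left 4 of the 6. The core 1 synthase C1GALT1 lay at -0.11, 0.13 and 0.25 and its chaperone C1GALT1C1 at 0.16, 0.22 and 0.02 in HuCCT1, YSCCC and KKU-100. GALNT11, the GalNAc-transferase outside the 10 with the most counts, lay at 0.06, -0.26 and 0.12. None of these 3 was called in any line.

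Some counts may hold reads of neighbours. In GENCODE 29, 93.2% of the exon bases of GALNT4 are shared with the readthrough gene POC1B-GALNT4 on the same strand, which has no row of its own here, so GALNT4 is uncertain. Antisense genes cover 21.1% of the exon bases of GALNT12 and 13.3% of those of GALNT2. Whether counting used strand is not stated in the labels, and reads in these stretches cannot be assigned. For GALNT10 the shared part was 1.15%, with MFAP3 on the same strand, for GALNT6 it was 5.34%, with SLC4A8 on the opposite strand, and GALNT1 shares no exon base with another gene.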

How the data were processed

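Polyadenylated RNA of the 18 libraries was sequenced after TruSeq mRNA preparation, per the labels' protocols. Per the submitters' processing notes, the build was GRCh38 and the authors' tools were HTSeq 0.6.1p1, StringTie 2.1.6, STAR 2.5.1b, DESeq2 1.34.0, FastQC 0.11.9 and Picard 1.139. Their roles, any filters and the use of strand in counting are not stated there. Each deposited file holds raw counts per gene for 1 library, which the tests used as they are. Per the file headers the same files hold TPM, which the authors computed and which served here for levels between genes and for shares of the family's sum. Other deposited columns were not used here.

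Libraries were grouped by their titles. Each line was fitted alone under R 4.3.3 with the quasi-likelihood F test of edgeR 4.0.16, with the replicate number as pair. Libraries were scaled by TMM, and filterByExpr kept genes (minimum count 10, minimum total 15). The two-sided p-values were adjusted by Benjamini and Hochberg's method across every gene tested, and called under 0.05. Levels between lines come from 1 fit of 6 group means over the 18 libraries. A test of the shRNF213#2 levels was planned, but its p-values are not reported, since those levels follow from what chose the genes. Differences of effect come from a fit with line and number as block. CPM used TMM-scaled totals, and log2 CPM a prior count of 2. Only the paired edgeR fit of each line was tried on simulated counts, and the other fits were not. The replicate numbers come from the titles. For same-numbered libraries of the 2 arms, deviations from the arm's mean had r of 0.787, 0.706 and 0.763 in HuCCT1 (10492 genes with a mean log2 CPM above 3). They had r of 0.819, 0.724 and 0.902 in YSCCC (10589 genes) and of 0.730, 0.600 and 0.406 in KKU-100 (10136 genes). All were above 0.1, and the numbers were taken as pairs. Some unmatched numbers passed that bar too. YSCCC shControl 2 with shRNF213#2 1 had r = 0.658, and YSCCC shControl 1 with shRNF213#2 2 had 0.517. KKU-100 shControl 3 with shRNF213#2 2 had 0.122. The other unmatched values were negative, and each shControl library was most like the shRNF213#2 library of its own number. The replicates are called biological in the design text, with nothing more on their cultures.

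The 10 genes, the pathway and marker lists and the tests were chosen with earlier results of these data known. Named genes are the 10, pathway genes called in at least 1 line, C1GALT1, C1GALT1C1 and GALNT11 whatever their values, and the 3 most alike genes of each of the 10 with at least 5 CPM, of which a part is printed. Marker lists covered biliary epithelium, hepatocytes, fibroblasts, immune and endothelial cells, interferon genes, and chaperone and ATF4 genes. The hepatocyte, fibroblast, immune and endothelial lists summed to at most 280.5, 40.38, 117 and 98.2 CPM in any library. Alternatives were no pairing, DESeq2 1.42.0 with the pairing, DESeq2's kind of size factors in edgeR (RLE), no filter on low counts, each replicate left out, and 1 fit of all 18 libraries. Promoter sequence comes from RefSeq (GRCh38.p14), exons from GENCODE 29.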

Additional observations from a re-analysis of the deposited data

Results flagged for a closer look

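A test of the difference itself, in 1 fit of 18 libraries with 9 pairs, put 3 GALNT contrasts and 2 of other pathway genes past an adjusted p of 0.05. The GALNT contrasts use the same ratios as the choice of the genes, and are therefore values only. The hairpin log2 fold change of GALNT1 was higher in KKU-100 than in HuCCT1 by 1.33 (SE 0.23) and than in YSCCC by 1.27 (SE 0.23). That of GALNT10 was higher in KKU-100 than in YSCCC by 1.10 (SE 0.15), with every KKU-100 pair higher and every YSCCC pair lower. Without replicate 1 the 3 values were 1.28, 1.10 and 1.04, and none passed. The GALNT1 values without replicate 3, 1.23 and 1.25, did not pass either. Without pairing none passed.

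Over all genes, 0.0470% differed between YSCCC and HuCCT1, 0.235% between KKU-100 and HuCCT1 and 2.63% between KKU-100 and YSCCC. MUC3A, a membrane mucin gene, differed between YSCCC and HuCCT1 by 1.92 (SE 0.27, edgeR adjusted p = 0.0263): it was higher with shRNF213#2 in 3 of 3 YSCCC pairs and lower in 3 of 3 HuCCT1 pairs. SLC35A1, the CMP-sialic acid carrier, differed between KKU-100 and YSCCC by -1.01 (SE 0.18, edgeR adjusted p = 0.0121), with fold changes of 0.03 and 1.04 on the log2 scale. How the MUC3A and SLC35A1 differences between lines depend on the pairing or on single replicates was not examined.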

How the results depend on the processing

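Without the replicate block, the count of GALNT genes called was 0 in YSCCC (2 with it) and 0 in KKU-100 (1 with it), and that of other pathway genes 0 in YSCCC (6 with it, and 4 in the fit of 18 libraries). The GALNT count in HuCCT1 was 0 in each alternative. With DESeq2 it was 2 in KKU-100, likewise with no low-count filter and in the fit of 18 libraries (GALNT1 and GALNT10 each time), and that last fit gave 1 in YSCCC. Other pathway genes called came to 2 in HuCCT1 with DESeq2 and with no filter, and to 2 in KKU-100 with DESeq2 and in the fit of 18 libraries. Leaving out 1 replicate gave 0 to 2 GALNT genes in YSCCC and 0 to 2 in KKU-100, and 0 to 5 other genes in HuCCT1 and 0 to 1 in KKU-100. For differences between lines, KKU-100 minus HuCCT1 gave 1 GALNT gene, 0 without the block, 2 with DESeq2 and 0 to 1 with a replicate left out. KKU-100 minus YSCCC gave 2, 0 without the block and 0 to 2 with a replicate left out. All genes called numbered 22, 1397 and 66 in HuCCT1, YSCCC and KKU-100, but 0, 0 and 2 without the block and 114, 1208 and 432 with DESeq2. With no filter they were 117, 2160 and 193, and in the fit of 18 libraries 8, 782 and 846. With 1 replicate left out (number 1, then 2, then 3), HuCCT1 had 18, 177 and 335, YSCCC 313, 530 and 1856, KKU-100 75, 420 and 9. Of 207 alternative values of the 26 tested GALNT fold changes, 16 had another sign, over 12 values of size at most 0.10. No called fold change changed sign. RLE factors moved no count of GALNT genes called between the arms. The cause of these differences was not tested. Genes at a few counts (GALNT5 and GALNT14 in YSCCC, GALNT3 in KKU-100) are limited by depth.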
